A study of Homo sapiens with 40 samples.

Results

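The circadian clock genes examined were CLOCK, PER1, PER2, PER3, CRY1, CRY2, NR1D1, NR1D2, DBP and BHLHE41, 10 of the 19663 protein-coding genes in the GENCODE 44 annotation. Their regions were all H3K27ac and CTCF peaks within 2 kb of one of their start sites (promoter peaks), in their gene bodies, or outside the gene with one of their start sites as the nearest within 100 kb (distal peaks). The rule gave 27 of 51489 H3K27ac peaks, 35 of 51457 CTCF peaks, 10 of 14886 enhancers listed in non-senescent cells, 9 of 13076 listed in senescent cells, and 2 of 2435 regions with senescence-specific binding of the retinoblastoma protein Rb. For 7 of the H3K27ac peaks and 9 of the CTCF peaks, the nearest start site belonged to another gene, because the peak lay far down the body of a clock gene or beside a close neighbour.

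The cells were EndoC-βH3, a human pancreatic beta-cell line immortalized by hTERT and SV40 large T antigen, which a tamoxifen-activated Cre recombinase (CreER) can cut out, with the genotype given as WT. Senescent cells had received 4-hydroxytamoxifen (4-OHT) for 3 weeks, and the non-senescent control was untreated cells of the same line that keep both transgenes. The drug, the excision and the senescent state therefore cannot be told apart, and a single line stands for beta cells. Chromatin immunoprecipitation with sequencing (ChIP-seq) covered the histone acetylation H3K27ac, found at promoters and enhancers in use, and the zinc-finger protein CTCF, which sits at the feet of chromatin loops, in 3 libraries per state each, and H3K4me1 and Rb in 2 per state, with 1 input library for each of these, 40 libraries in all. Nothing in the sources says that the replicates were separate cultures, so the p-values measure the spread between these libraries, which may be technical. The time of day at which cells were collected is not given in the sources used here. The assay averages over the cells of a culture, so fewer cells with a mark and less of the mark per cell cannot be told apart.

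As background, the clock is a feedback loop. CLOCK and its partner BMAL1 bind E-box elements and switch on the PER and CRY genes, whose proteins return to the nucleus and inhibit CLOCK and BMAL1. A side loop runs through the nuclear receptors NR1D1 and NR1D2 (REV-ERB alpha and beta), which repress the gene for BMAL1. DBP activates genes with a D-box, and BHLHE41 (DEC2) represses E-box genes. In the islet, the clock of the beta cell is known to shape when insulin is released over the day.

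The deposited tables give, for each peak, the mean normalized read count over libraries and the log2 fold change of senescent over non-senescent cells with its standard error (SE), and no value per library. Levels in each state are therefore those implied by the mean count and the fold change, with equal weight for the states. Peaks counted as gained or lost had a fold change above 1.5 with an adjusted p-value under 0.05 for H3K27ac or under 0.2 for CTCF, from the deposited Wald test over all peaks. Intervals are 95% Wald intervals of the log2 fold change. The labels of the states were checked first. H3K27ac at the promoter of MKI67, a proliferation marker, had a log2 fold change of -2.29 ± 0.14 (SE), and at the promoter of CDKN1A, which encodes the cell-cycle inhibitor p21, of 2.50 ± 0.16. All 11 beta-cell marker genes examined had an H3K27ac promoter peak, among them INS and PDX1, against 66.4% of all protein-coding genes. The log2 fold changes of these 11 peaks lay between -0.13 and 0.93, with 1 gained (IAPP) and 0 lost. Of 9 markers of other cells, 3 had an H3K27ac promoter peak (SST, CPA1 and KRT19), and the table held none for GCG, PPY, PRSS1, PTPRC, PECAM1 or COL1A1. The peaks of SST and KRT19 were lost in senescent cells, at -0.86 and -0.74, while that of CPA1 was at 0.19 ± 0.069 (adjusted p = 0.017), and the part of such cells in the results below was not tested.

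The promoter sequences of 4 members are shown because the largest level, the promoter CTCF losses and the highest promoter fold changes below belong to them. They are RefSeq windows on GRCh38.p14, from 250 bases before to 50 bases after the start site, written 5′ to 3′ on the strand of the gene. All 4 genes lie on the minus strand. The PER2 window does not reach the lost promoter CTCF peak of PER2. Capitals mark the E-box CACGTG, the related E′-box CACGTT, the D-box TTATGTAA or TTACGTAA, and a 12-base CTCF core (CC, 3 free bases, AG, 2 free bases, GGC), each searched on both strands. In NR1D1, an E′-box and a CTCF core share 1 base and run together.
PER2 (chr2:238288561-238288860): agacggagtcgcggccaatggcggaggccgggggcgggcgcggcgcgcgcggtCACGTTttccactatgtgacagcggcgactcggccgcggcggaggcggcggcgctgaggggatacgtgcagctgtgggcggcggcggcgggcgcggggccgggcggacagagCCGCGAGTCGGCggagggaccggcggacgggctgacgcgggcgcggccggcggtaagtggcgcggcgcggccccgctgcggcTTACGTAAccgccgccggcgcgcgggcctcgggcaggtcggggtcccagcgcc
CLOCK (chr4:55546860-55547159): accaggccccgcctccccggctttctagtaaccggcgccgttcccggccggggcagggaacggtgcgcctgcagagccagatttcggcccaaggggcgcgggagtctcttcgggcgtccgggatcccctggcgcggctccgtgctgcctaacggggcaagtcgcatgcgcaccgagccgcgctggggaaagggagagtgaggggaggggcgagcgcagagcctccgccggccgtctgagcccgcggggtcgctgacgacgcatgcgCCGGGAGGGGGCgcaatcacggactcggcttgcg
PER1 (chr17:8152355-8152654): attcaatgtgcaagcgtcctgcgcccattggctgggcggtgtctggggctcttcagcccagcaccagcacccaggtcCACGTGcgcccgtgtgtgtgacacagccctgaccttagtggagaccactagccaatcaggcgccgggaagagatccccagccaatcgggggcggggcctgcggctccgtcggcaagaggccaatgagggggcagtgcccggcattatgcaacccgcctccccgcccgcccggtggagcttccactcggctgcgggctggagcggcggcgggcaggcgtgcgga
NR1D1 (chr17:40100540-40100839): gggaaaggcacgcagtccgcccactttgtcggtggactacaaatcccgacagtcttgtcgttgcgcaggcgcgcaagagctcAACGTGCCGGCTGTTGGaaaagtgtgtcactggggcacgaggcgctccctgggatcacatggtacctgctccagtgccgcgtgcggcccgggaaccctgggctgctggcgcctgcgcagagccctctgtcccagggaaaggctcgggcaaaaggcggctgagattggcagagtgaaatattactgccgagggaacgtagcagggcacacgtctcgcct

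All 10 genes matched a RefSeq window, and where RefSeq has more than 1 the first listed was read. PER1 and BHLHE41 held the E-box, found in 7.43% of 27305 such windows over all genes, and PER2, CRY1 and NR1D1 held the E′-box, found in 5.27%. PER2 and PER3 held a D-box, found in 1.05% of all windows. The CTCF core was in the windows of 5 members, CLOCK, PER2, CRY1, NR1D1 and DBP, and in 10.6% of all. Each match is a match of letters and not a measured site.

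Promoter H3K27ac of the clock genes was present at 8 of 10 genes and was not called gained or lost at any of them. Across all genes with a promoter peak, taking the peak with the highest mean count for each, 3.15% of 13059 were gained and 8.94% were lost. The median log2 fold change of the 8 clock promoters was 0.090, against 0.038 over all genes, where the quartiles were -0.19 and 0.22. For 7 of the 8, the 95% interval stayed inside a 1.5-fold change in both directions. By the deposited Wald test, 3 of the 8 had an adjusted p-value under 0.05, the same number as at an unadjusted p under 0.05, and all 3 were higher in senescent cells. Over all promoter peaks, 24.6% passed this threshold with a higher and 19.3% with a lower value.

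**Figure D1:**
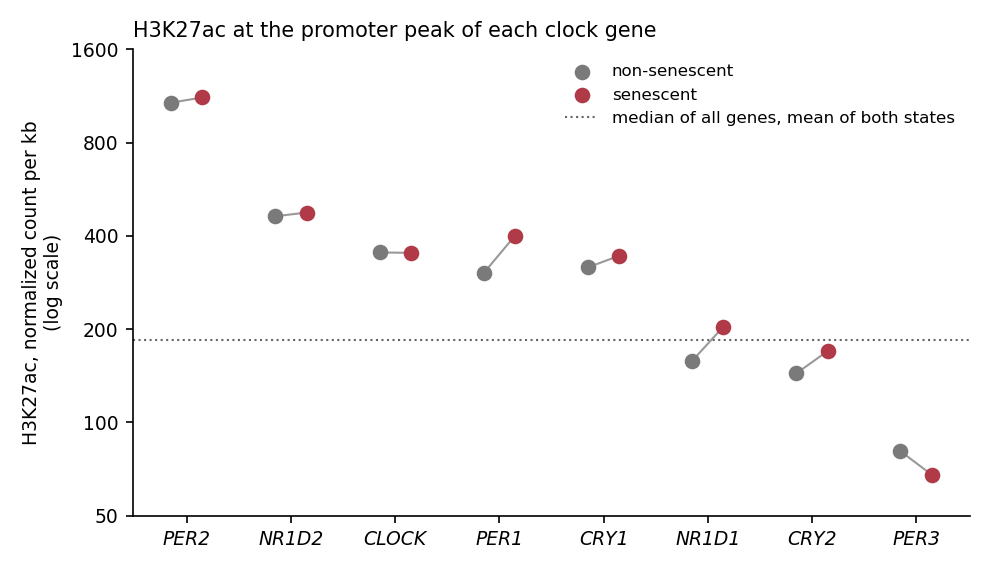
H3K27ac at the promoter peak of each clock gene, in normalized count per kb on a log scale, implied for non-senescent (grey) and senescent cells (red). The dotted line is the median over all genes (184 per kb). PER2 stands highest and PER3 lowest in both states, and PER1 and NR1D1 show the steepest steps between states.

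CLOCK, the activator of the loop, had the same promoter level in both states, at 354 counts per kb in non-senescent and 352 in senescent cells. Its log2 fold change was -0.0048, with an interval from -0.14 to 0.13. The one other H3K27ac peak of CLOCK lay in its body at chr4:55436592-55439997, over a CLOCK exon and inside the overlapping gene TMEM165, whose start site is nearer. It had 119 counts per kb in non-senescent and 145 in senescent cells, with a log2 fold change of 0.28 ± 0.10 and an adjusted p of 0.019, under the fold threshold.

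Among the PER genes, PER1, an early-responding inhibitor of CLOCK and BMAL1, carried a promoter domain 15.9 kb wide at chr17:8149167-8165047. The domain rose from 303 to 400 counts per kb, a log2 fold change of 0.40 ± 0.060 (adjusted p = 5.7e-10), which is a 1.32-fold difference and below the fold threshold. It also covers the start sites of VAMP2 and ENSG00000263620, so the rise cannot be given to PER1 alone. Of all genes with a promoter peak, 9.19% had a higher log2 fold change. A distal PER1 peak past the end of the gene at chr17:8138072-8140237 had a log2 fold change of 0.25 ± 0.12 and an adjusted p of 0.080.

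PER2 carried the H3K27ac peak with the highest mean count in the whole table, 22139 normalized counts, the next being 16247 at PAX6. This promoter domain, chr2:238270268-238290446, is 20.2 kb wide, a width that only 108 peaks of the table, itself included, reach. Per length it still ranked 10th, with 1076 counts per kb in non-senescent and 1118 in senescent cells. Its log2 fold change was 0.055 ± 0.056, with an interval from -0.054 to 0.16, so a 1.5-fold change in either direction lies outside the interval.

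Beyond this domain, H3K27ac fell at some of the PER2 peaks and not at others. Of the 10 H3K27ac peaks assigned to PER2, 3 were lost, all in the part of the gene farthest from the start, and none was gained. Over all peaks, 13.1% were lost and 9.47% were gained. The lost peak nearest to the promoter, chr2:238254010-238259978, fell from 267 to 149 counts per kb, a log2 fold change of -0.84 ± 0.080 (adjusted p = 7.9e-24). It covers PER2 exons 30.1 to 36.1 kb from the most upstream start site and holds an enhancer listed in both states. Only 328 bp separate it from the next peak towards the promoter, chr2:238260307-238269143, which had 132 counts per kb in non-senescent and 153 in senescent cells (log2 fold change 0.21 ± 0.085, interval 0.039 to 0.37). The intervals of these neighbours do not overlap.

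The other 2 lost peaks lay beyond. A small one at chr2:238252703-238253567, with a mean of 47.3 counts, had a log2 fold change of -1.17 ± 0.34 (adjusted p = 0.0021). At the end of the gene, chr2:238237669-238244413 fell from 461 to 260 counts per kb, a log2 fold change of -0.82 ± 0.066 (adjusted p = 6.9e-34). That peak covers the start site of HES6, which encodes a helix-loop-helix protein, and only the edge of its length lies in PER2, so it is also the promoter peak of HES6. The 3 peaks between the lost ones had log2 fold changes of -0.077 to -0.27, none called. All peaks from the first lost one to the end of the gene were nearer to the start site of HES6 than to one of PER2.

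**Figure D2:**
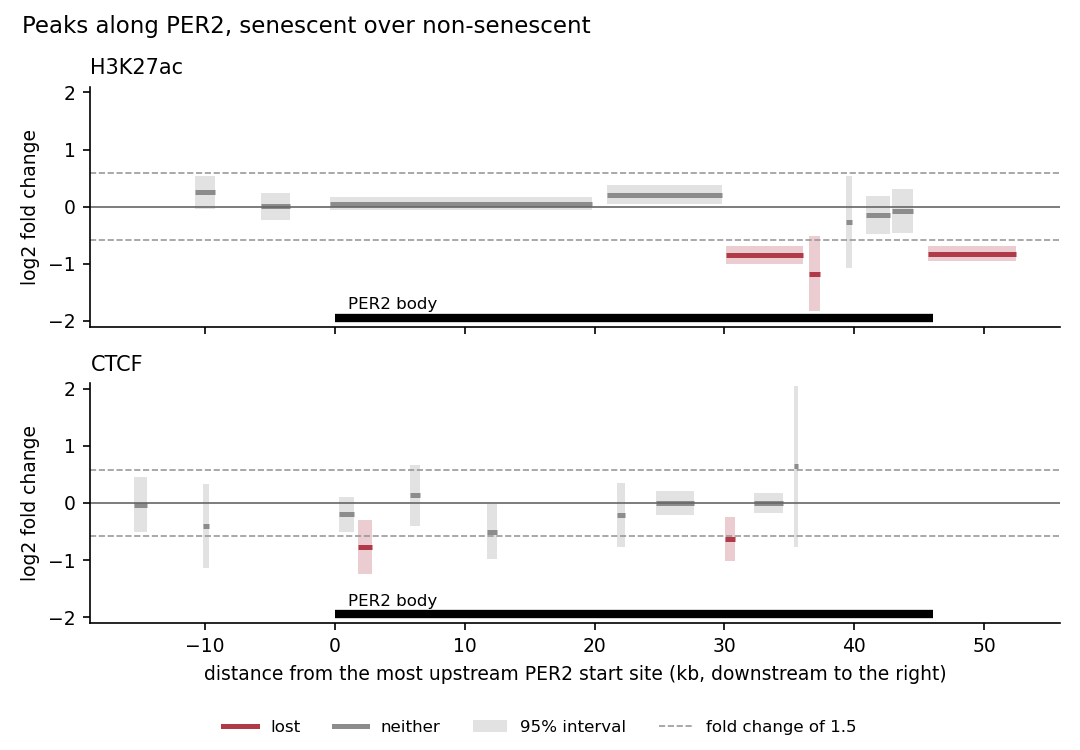
Log2 fold change (senescent over non-senescent) of H3K27ac and CTCF peaks along PER2, by distance in kb from its most upstream start site. Each line spans a peak, shading is the 95% interval, red marks lost peaks, and dashed lines mark a 1.5-fold change. H3K27ac is near 0 over the promoter domain and lies at -0.84 from 30.1 to 36.1 kb, while the 2 broad CTCF peaks between 24.7 and 34.5 kb lie at 0.

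PER3, the remaining PER gene, had a single H3K27ac peak, at its promoter, with the lowest level of the 8 (80.7 counts per kb in non-senescent and 67.8 in senescent cells). Its log2 fold change was -0.25 ± 0.17, with an interval from -0.59 to 0.086, and 88.4% of genes with a promoter peak had a higher count per kb.

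CRY1 and CRY2 encode the cryptochromes, the main repressors of CLOCK and BMAL1, and each held 1 called H3K27ac peak away from its promoter. At CRY2, the peak chr11:45855058-45860041 in the gene body was gained, with a rise from 80.1 to 159.8 counts per kb (log2 fold change 0.997 ± 0.097, interval 0.81 to 1.19, adjusted p = 1.0e-22). It was the only gained H3K27ac peak of the clock genes, lies 7583 bp from the nearest CRY2 start site, covers a CRY2 exon and holds an enhancer listed in both states. The CRY2 promoter peak had 144 and 170 counts per kb and a log2 fold change of 0.24 ± 0.084 (adjusted p = 0.014). A weak upstream peak stayed at -0.016 ± 0.25.

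At CRY1, the distal peak chr12:107130643-107132333 was lost. It lies 37094 bp upstream of the gene in no protein-coding gene body, and fell from 85.8 to 34.4 counts per kb (log2 fold change -1.32 ± 0.22, interval -1.75 to -0.89, adjusted p = 2.1e-08). This was the largest H3K27ac difference of the clock genes in either direction. The CRY1 promoter peak had 316 and 345 counts per kb, with a log2 fold change of 0.12 ± 0.073 and an interval from -0.018 to 0.27. Inside the gene, 2 strong intronic peaks had higher levels in senescent cells without reaching the fold threshold. The one at chr12:107026033-107030472 had a log2 fold change of 0.42 ± 0.098 (adjusted p = 1.3e-04), and the one at chr12:107039993-107045820, at 379 and 434 counts per kb the strongest CRY1 peak, of 0.20 ± 0.074 (adjusted p = 0.023). The other 3 CRY1 body peaks had log2 fold changes of -0.067 to 0.21 with intervals across 0.

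Of the nuclear receptors, NR1D1 had 1 H3K27ac peak, over its start site at chr17:40098220-40102718. It rose from 158 to 204 counts per kb, a log2 fold change of 0.37 ± 0.087 (adjusted p = 1.4e-04), 1.29-fold and below the fold threshold. NR1D2 had a stronger promoter peak, 463 and 476 counts per kb, with a log2 fold change of 0.040 ± 0.067 and an interval from -0.093 to 0.17. The NR1D2 peak also covers the start site of NKIRAS1.

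For DBP, the D-box activator, and BHLHE41, the E-box repressor, the H3K27ac table held no peak under the rule, whereas 66.4% of protein-coding genes had a promoter peak. The nearest H3K27ac peak lay 8417 bp from a DBP start site and had CA11 as its nearest gene, and the nearest to BHLHE41 lay 8863 bp away with SSPN as its nearest gene. A region without a listed peak was below the calling limit in these libraries and need not be free of the mark.

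Over all 27 H3K27ac peaks, 5 (18.5%) were called, 1 gained and 4 lost, against 22.6% of all peaks. The median log2 fold change was 0.055, against 0.0075 over all peaks. The 22 uncalled peaks lay between -0.27 and 0.42. Of them, 7 had an adjusted p-value under 0.05 with a difference below 1.5-fold, and all 7 were higher in senescent cells. They were the promoter peaks of PER1, NR1D1 and CRY2 and body peaks of CLOCK, PER2 and CRY1. Over all peaks, 9.42% were higher in this way and 7.19% lower. The median standard error was 0.10 for the 27 peaks and 0.19 over all H3K27ac peaks. Small differences therefore pass the test more easily at the clock genes than at a typical peak.

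**Figure D3:**
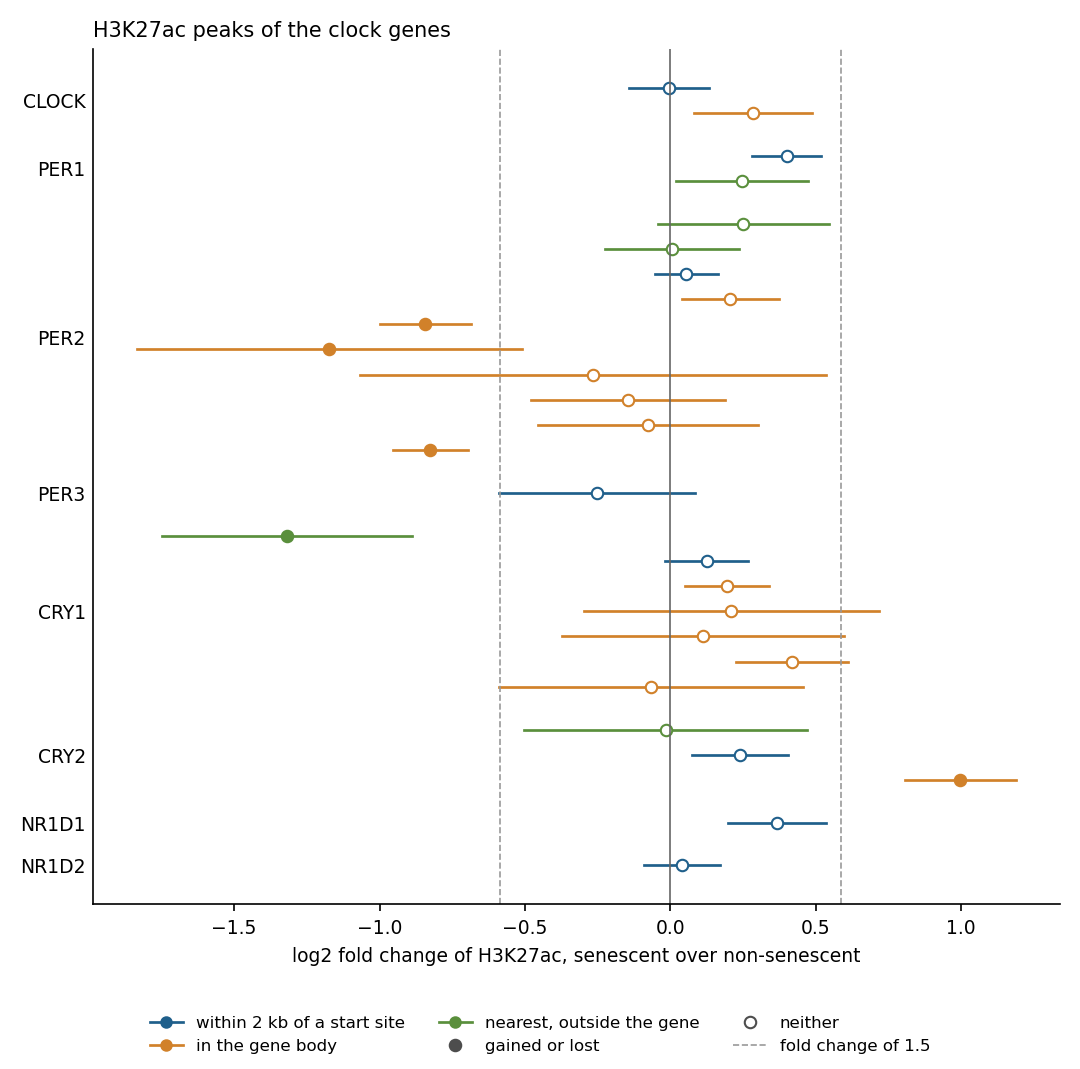
Log2 fold change of all 27 H3K27ac peaks of the clock genes with 95% intervals, ordered within a gene from upstream to downstream. Colours give the class of the peak, filled points are gained or lost, and dashed lines mark a 1.5-fold change. The blue promoter points all lie inside the dashed lines, and the 5 filled points are a gene-body peak of CRY2, 3 of PER2 and a distal peak of CRY1.

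Enhancers were listed by overlap of H3K27ac and H3K4me1 outside promoters in each state, and 6 clock genes had at least 1 in each list. Of the 10 regions in non-senescent cells, 8 overlapped a region of the senescent list, and of the 9 in senescent cells, 8 overlapped one of the other list. Over the whole lists, 70.6% and 79.5% overlapped. The lost CRY1 site at chr12:107130643-107131741 was listed in non-senescent cells only. Upstream of PER2, chr2:238293683-238295759 was listed in non-senescent cells only and chr2:238299523-238300673 in senescent cells only. The H3K27ac peaks at these PER2 sites had log2 fold changes of 0.0050 ± 0.12 and 0.25 ± 0.15, so neither list change came with a called change of the mark. The CRY2 enhancer was 3137 bp long in the non-senescent list and 4984 bp in the senescent list. The enhancer nearest to NR1D1, at chr17:40107443-40114541 in non-senescent cells, was shared, and its H3K27ac peak, which the rule did not give to NR1D1, had a log2 fold change of 0.30 ± 0.080.

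CTCF was found at 9 of the 10 genes, all but DBP, for which the table held no peak under the rule. Of the 35 peaks, 30 had an adjusted p-value, and the 5 without one had a mean count of at most 16.1. Of these 30, 2 were gained and 3 lost, against 2.99% gained and 4.28% lost, 7.27% together, over all CTCF peaks with an adjusted p. At an unadjusted p under 0.05 there were 7 of 35, these 5 included. The median log2 fold change of the 35 was -0.0063, against -0.012 over all peaks. The loose CTCF threshold matters here, because the gained calls had adjusted p-values of 0.085 and 0.19.

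PER2 held 2 of the lost CTCF peaks. The one at chr2:238287258-238288280, in an intron 330 bp from a start site, fell from 121 to 71.4 counts per kb (log2 fold change -0.77 ± 0.24, adjusted p = 0.047). The one at chr2:238259256-238260076 reaches from the end of the lost H3K27ac peak into the gap before the next one and fell from 183 to 118 counts per kb (-0.63 ± 0.20, adjusted p = 0.046). The lost CTCF peak of CLOCK lies over its start site at chr4:55546636-55547566 and fell from 134 to 87.8 counts per kb (-0.61 ± 0.21, adjusted p = 0.082). It holds the core CCGGGAGGGGGC shown in capitals in the CLOCK promoter above.

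The gained CTCF peaks belonged to BHLHE41 and CRY1. At the end of BHLHE41, over its last exon, chr12:26119155-26120529 went from 61.3 to 93.8 counts per kb (0.61 ± 0.22, adjusted p = 0.085), and its nearest start site is that of SSPN. In a CRY1 intron, chr12:107079022-107079637 went from 53.8 to 91.4 counts per kb (0.76 ± 0.34, adjusted p = 0.19).

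The log2 fold changes of CTCF moved with the GC content of the peak. A GC trend was subtracted, the median over GC of those CTCF peaks that lay in no promoter, enhancer or H3K27ac peak. Beyond the centre of the highest GC bin the trend was held flat, as for the lost CLOCK peak and some other GC-rich promoter peaks. The Wald test was then repeated. With Benjamini-Hochberg adjustment over all peaks, 0 of the 5 calls had an adjusted p under 0.2. With adjustment over the peaks with a deposited adjusted p, both lost PER2 peaks did. The adjusted p was 0.198 for the peak near the start and 0.178 for chr2:238259256-238260076. Only the peak near the start kept its call, because the other, at -0.53, fell short of the fold threshold. In the repeated test 2 peaks of the 35 had an unadjusted p under 0.05. The CLOCK value became -0.31, that of BHLHE41 became 0.36, that of CRY1 0.61, and those of PER2 -0.62 and -0.53. The GC contents were 67.2% for the CLOCK peak and 34.1% for the BHLHE41 peak. Of the 5 called peaks, 1 (CLOCK) holds the CTCF core. Of all 35, 17 (48.6%) hold it, against 38.3% of all CTCF peaks and 9.31% of the same regions shifted by 10 kb. The median count was 117 for clock gene peaks with the core and 40.8 for those without.

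**Figure D4:**
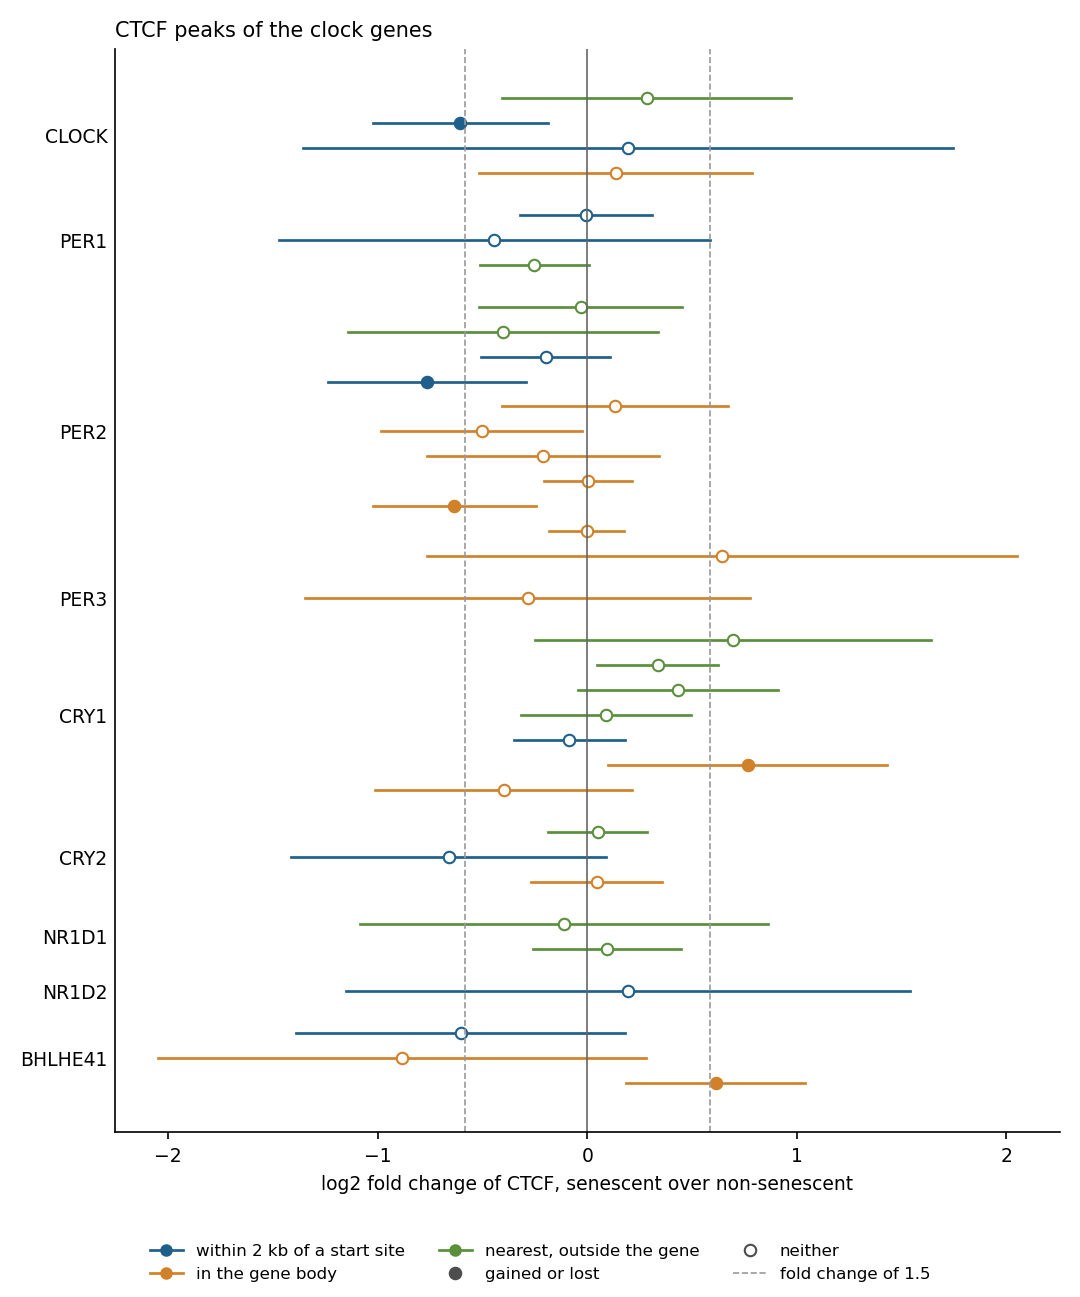
Log2 fold change of all 35 CTCF peaks of the clock genes with 95% intervals, drawn like the H3K27ac peaks. Filled points are the 3 lost peaks (CLOCK and PER2) and the 2 gained peaks (CRY1 and BHLHE41), and most other intervals cross 0.

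The 3 CTCF peaks of the clock genes with the highest mean counts had intervals across 0. They are shown with the sequence around their core, 24 bases on either side on hg38 in the direction of the core, because they give the comparison for the called peaks. The cores are in capitals.
PER2 gene body, minus strand (chr2:238256780-238256839): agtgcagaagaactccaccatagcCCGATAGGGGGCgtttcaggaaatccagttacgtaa
PER2 gene body, minus strand (chr2:238263632-238263691): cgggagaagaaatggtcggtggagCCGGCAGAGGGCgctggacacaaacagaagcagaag
CRY2 upstream, plus strand (chr11:45843274-45843333): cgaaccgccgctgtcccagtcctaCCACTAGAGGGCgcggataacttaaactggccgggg

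The first is from the PER2 peak chr2:238255603-238257836, which ranked 53rd by mean count among all CTCF peaks at 1125 counts. Its log2 fold change was -0.0031 ± 0.090, with an interval from -0.18 to 0.17, although it lies inside the H3K27ac peak that was lost at -0.84. The second is from the PER2 peak chr2:238262416-238265357, with 0.0042 ± 0.11. The third is from the CRY2 peak chr11:45842366-45844439, with 0.049 ± 0.12 and an interval from -0.19 to 0.29. With the GC trend removed, the first became 0.080 and the third -0.077. At the lost distal H3K27ac site of CRY1, the overlapping CTCF peak chr12:107130966-107132633 was 0.34 ± 0.15 (interval 0.048 to 0.63, adjusted p = 0.18), below the fold threshold and in the other direction. The difference between the marks at these sites was not tested.

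At promoters, 8 of the 10 CTCF peaks of the clock genes were below 0, with a median of -0.32. Of 11061 CTCF promoter peaks over all genes, 70.3% were below 0, with a median of -0.17. With the GC trend removed, 6 of the 10 were below 0 with a median of -0.13, and over all promoter peaks 51.1% were, with a median of -0.0079. The remaining genes had no called CTCF peak. By smallest p, PER1 had -0.25 ± 0.13 at its distal peak chr17:8137888-8139442, CRY2 -0.66 ± 0.38 near its start, PER3 -0.28 ± 0.54 in its body, NR1D1 0.093 ± 0.18 and NR1D2 0.19 ± 0.69. The error of the last of these exceeds its value several times over, at a mean of 13.6 counts.

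Rb, the pocket protein that holds cell-cycle genes silent together with E2F factors, had a senescence-specific region at the promoters of PER2 and NR1D2, 2 of the 10 clock genes, against 1.57% of all protein-coding genes and 0 of the 28 other clock genes described next. The PER2 region, chr2:238288455-238288692, is 238 bp long with 78.6% GC, covers a start site, contains the D-box TTACGTAA in the promoter printed above and overlaps the PER2 CTCF peak chr2:238288627-238289753 (-0.20 ± 0.16, and 0.097 with the GC trend removed). The NR1D2 region, chr3:23945315-23945764, is 450 bp long with 78.7% GC and begins 29 bp from the start site. It coincides with the weak NR1D2 CTCF peak and also lies in the body of NKIRAS1. An E2F motif (TTTCCCGC, TTTGGCGC, TTTCGCGC or TTTGCCGC) was in 0 of the 10 RefSeq promoter windows, beside 3.33% of all windows. These windows hold only 132 bases of the PER2 region and 21 of the NR1D2 region. Promoter H3K27ac at PER2 and NR1D2 had the log2 fold changes of 0.055 and 0.040 given above. The list of Rb regions holds positions only, so the strength of Rb binding cannot be given. Per the study's methods, these regions were called on an unadjusted p-value, with 2 libraries per state. A single region is therefore less certain than a call on an adjusted p-value.

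The other clock genes, a list of 28 partners, kinases, ubiquitin ligases and output factors, was taken for comparison. Of them, 25 had an H3K27ac promoter peak, of which 0 were gained and 6 were lost, beside 3.15% and 8.94% over all genes. At an adjusted p under 0.05 without the fold threshold, 4 were higher and 9 lower, the 6 lost ones included, against 24.6% and 19.3% of all genes. At an unadjusted p under 0.05, 4 were higher and 10 lower. The median log2 fold change was -0.0019, against 0.038 over all genes. BHLHE40, the paralog of BHLHE41, had -0.90 ± 0.068 (adjusted p = 3.9e-37). BMAL2, an alternative partner of CLOCK, had -0.84 ± 0.14 (adjusted p = 4.5e-08). HLF, a D-box factor of the DBP family, had -0.80 ± 0.15 (adjusted p = 1.7e-06), and CIART, a repressor of CLOCK and BMAL1, -0.80 ± 0.21 (adjusted p = 5.7e-04). TIMELESS, which acts in DNA replication as well, had -0.60 ± 0.11 (adjusted p = 1.9e-07), and PPARGC1A, a coactivator of mitochondrial genes, -1.12 ± 0.24 (adjusted p = 2.8e-05). BMAL1 itself was not called, at -0.10 ± 0.10 with an interval from -0.31 to 0.10. No test compared this list with the 10 genes or with other genes.

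**Figure D5:**
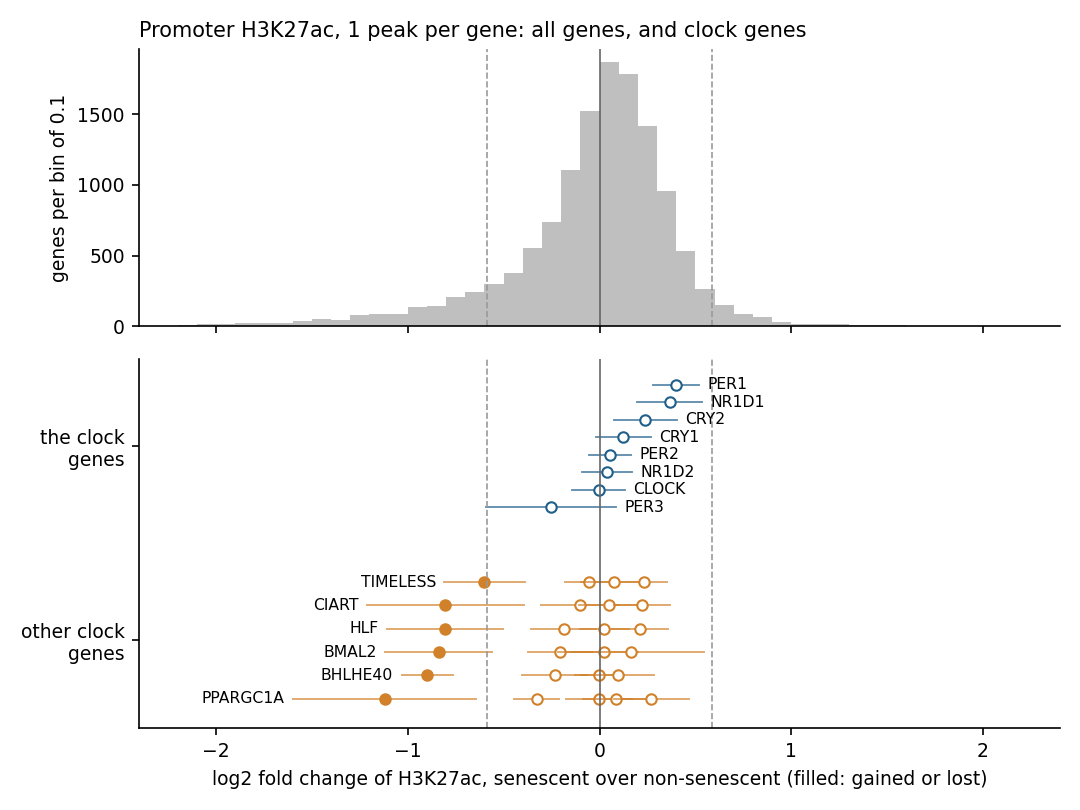
Top, the number of genes by log2 fold change of their promoter H3K27ac peak (13059 genes, bins of 0.1, drawn between -2.4 and 2.4). Bottom, the 8 clock genes and 25 other clock genes on the same axis with 95% intervals, filled where lost. Dashed lines mark a 1.5-fold change. The points of the 8 clock genes lie between these lines, and 6 other clock genes lie to their left.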

How the data were processed

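Per the study's methods, the authors aligned reads to hg38 with Bowtie2, removed duplicate reads for H3K27ac, H3K4me1 and Rb (for CTCF no such step is described), called peaks against input (HOMER for H3K27ac and H3K4me1, MACS2 for CTCF, after which a motif filter is described), called Rb peaks of senescent over non-senescent cells with MACS2, and compared reads in peaks between states with DESeq2. The Rb calls used a threshold on the unadjusted p-value. Of the deposited CTCF peaks, 38.3% hold the CTCF core searched for here, which is not the motif search of the study. Whether the described filter was applied to these peaks is not known, and the CTCF calls here were not limited to peaks with a motif. Tool versions are not given in the sources used here. The deposited mean is a normalized read signal, the mean over libraries of counts divided by size factors. The deposited fold change and standard error are on the log2 scale, and the deposited p-value and adjusted p-value are those of the authors. Size factors set the typical peak to 0, so a genome-wide shift of a mark cannot be seen. The region lists the authors deposited hold positions alone. A count model had been planned for values per library. The tables hold none, so library depth is unknown, the deposited fold changes, standard errors and p-values were used as they stand, and precision is given by the standard error.

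The members and gene lists were chosen with earlier results of these data known. Promoters were 2 kb either side of protein-coding start sites in GENCODE 44, and an overlap meant 1 bp or more. The deposited starts were raised by 1 for printing. For named genes, the promoter H3K27ac peak, each gained or lost peak and, where a mark had none, the peak with the smallest p were taken, and of the other clock genes each with a called promoter peak. Names given beyond this rule were chosen after their values were seen. Levels implied for each state solve the mean count and the fold change with equal weights. Intervals are 1.96 standard errors wide on each side. The GC trend was the median log2 fold change in 20 bins, interpolated between bin centres and flat beyond the outermost ones. All 14 RefSeq windows of the clock genes were identical to hg38. Scripts ran on Python 3.11.15 with pandas 2.3.3, NumPy 2.4.6 and SciPy 1.17.1, and the recalling steps were tested on simulated data. The alternatives tried were stricter p and fold thresholds, a test against a 1.5-fold change, adjustment over all peaks, other distance limits, start sites and overlaps, a mean count of at least 50, GC trend removal and the CTCF core.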

Additional observations from a re-analysis of the deposited data

How the results depend on the processing

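No paired analysis was possible because the tables hold no values per library, and for the same reason no replicate could be left out in turn. The H3K27ac counts of the clock genes (1 gained, 4 lost) moved by over 1.5 times only at a fold change above 2, to 0 gained and 2 lost, since the CRY2 peak lies just under 2-fold. The 4 lost became 3 at a mean count of at least 50, with 50% of the peak required in the gene, and in the test against a 1.5-fold change. The CTCF counts (2 gained, 3 lost) depended on the setting. Both became 0 at a fold change above 2, in the test against a 1.5-fold change (0 of 35 also at an unadjusted p under 0.05) and with the GC trend removed, the latter tests both adjusted over all peaks with a p. With the GC trend removed and adjustment over the peaks with a deposited adjusted p, chosen after seeing the data, the counts were 0 gained and 1 lost. The stricter adjusted p of 0.05 left 0 gained. Adjustment over all peaks, a mean count of at least 50, and 50% of the peak in the gene each left 1 gained. Among peaks with the CTCF core, 0 were gained and 1 was lost. Over all CTCF peaks, removing the GC trend alone took the gained calls from 1180 to 483 and the lost calls from 1690 to 877, adjustment over all peaks alone gave 1111 and 1815, and both together 434 and 887. The 6 lost promoters of other clock genes became 1 at a fold change above 2. With a reciprocal overlap of 50%, enhancers listed in senescent cells only went from 1 to 2, and those in non-senescent cells only from 2 to 3. In 39 checks, the change from 2 to 3 included, counts and medians stayed within 1.5 times or within 1 standard error. With the GC trend removed, 6 of the 35 CTCF peaks changed sign, none of them called and all within 0.20 of 0 as deposited. Their values became 0.080, 0.097 and 0.030 at PER2, -0.077 at CRY2, -0.036 at CRY1 and 0.065 at PER1. Of 58 checks of peaks named by the rule, 0 changed direction and 12 (a test against a 1.5-fold change, adjustment over all peaks, GC trend removal) lost the call, 11 for the 5 called CTCF peaks and 1 for the small lost PER2 H3K27ac peak. Why the CTCF calls follow GC content was not tested. Counts per library would be needed to judge single libraries.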
